A study of Sus scrofa with 70 samples.

Results

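The tight junction genes of the boar were described in 5 glands of the male reproductive tract. The set holds 34 genes of the 42873 in the annotation. It takes every gene whose name in the deposited annotation begins with CLDN, TJP or MARVELD, with OCLN, F11R, JAM2, JAM3 and CGN added by name. These are 21 numbered claudins, the 2 claudin domain genes CLDND1 and CLDND2, 3 tight junction protein (ZO) genes, 3 MARVEL domain genes, occludin, 3 junctional adhesion molecules and cingulin. The annotation itself names 32 of them. CLDN10 carries no name there and was matched through its Ensembl identifier ENSSSCG00000009500, and CGN (ENSSSCG00000006621) was matched by its position to the RefSeq gene. Of the 34, 33 had a value above 0 in the expression table, and 26 reached at least 1 TPM (transcripts per 1000000) in at least 3 libraries and were tested. TPM is a level scaled by transcript length. The 8 below that level were CLDN14, CLDN15, CLDN16, CLDN17, CLDN18, CLDN19, CLDN20 and CLDN25.

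Tissue of testis, epididymis and the 3 accessory glands (bulbourethral, prostate and vesicular) came from boars aged 12 months of the Banna mini-pig inbred line (BMI) and of the Diannan small-ear pig (DSE), the non-inbred stock from which BMI was bred. RNA-seq was made from 3 libraries for each breed and gland, 30 in all, and Iso-seq, which reads whole transcripts, from 1 library for each, 10 in all. No treatment or genotype other than breed separates the groups. The labels number the replicates without saying that each came from a different boar, so the p-values measure the spread between these libraries, which may be technical. Each library holds the RNA of a whole piece of gland, in which fewer cells of a type and less RNA in each cell cannot be told apart.

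Tight junctions seal the space between neighbouring epithelial cells. Claudins are small proteins that cross the membrane several times, and the claudins a cell makes decide which ions and water pass between cells. Occludin, MARVELD2 and MARVELD3 lie in the same strands and concentrate where cells meet. MARVELD1 is in the set by its name, and its levels are not to be read as those of a strand protein. Junctional adhesion molecules are immunoglobulin-like proteins beside the strands, and the ZO proteins and cingulin form the plaque that ties the strands to actin. In testis the junctions between Sertoli cells form the blood-testis barrier, in which claudin-11 is a main strand protein. The ducts and glands of the tract are lined by epithelia that keep secreted fluids apart from blood.

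The claudins share a short signature in the first loop outside the cell, with glycine, leucine and tryptophan in a row and a cysteine shortly after. It was searched in frame on the coding strand, as a codon beginning GG, a codon beginning CT, the codon TGG, any 2 codons and a codon beginning TG. It was found in 18 of the 20 numbered claudins whose Ensembl coding sequence begins with ATG, in 1 of the 13 other members, and in 0.324% of all 19432 genes with such a sequence. The other member was CLDND2. The letters were not found in CLDN10 and CLDN15, which says nothing of other spellings. The stretches below come from the genome Sscrofa11.1, 5′ to 3′, with the match in capitals and the strand of the gene as printed, for claudins whose levels are described below and for CLDN6, the neighbour of CLDN9, and each lies within 1 coding exon.
CLDN11 (chr13:109075852-109075899, plus strand): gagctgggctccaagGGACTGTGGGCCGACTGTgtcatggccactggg
CLDN9 (chr3:39173778-39173825, minus strand): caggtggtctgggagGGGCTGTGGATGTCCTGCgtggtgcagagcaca
CLDN6 (chr3:39171537-39171584, plus strand): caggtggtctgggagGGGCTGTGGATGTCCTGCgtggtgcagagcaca
CLDN22 (chr15:44804721-44804768, minus strand): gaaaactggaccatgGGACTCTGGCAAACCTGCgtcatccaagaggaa
CLDN8 (chr13:193563856-193563903, minus strand): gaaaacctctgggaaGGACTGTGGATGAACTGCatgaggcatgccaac
CLDN23 (chr17:484512-484559, minus strand): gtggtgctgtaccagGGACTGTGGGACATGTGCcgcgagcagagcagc
CLDN7 (chr12:52614241-52614288, minus strand): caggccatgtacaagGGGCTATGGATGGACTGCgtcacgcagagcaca
CLDN4 (chr3:11052572-11052619, plus strand): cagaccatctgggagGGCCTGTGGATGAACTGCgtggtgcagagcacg
The match began at codon 51 of CLDN11 and at codon 49 of CLDN7, CLDN4, CLDN8, CLDN9 and CLDN22. The stretches of 48 bases of CLDN9 and CLDN6 were identical. These neighbours lie end to end on chromosome 3, and reads from such shared stretches could be assigned to either gene.

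TPM is scaled by transcript length and by the sum of each library, and the table keeps no depth. The 10 most abundant genes took 12.7 to 19.97% of the TPM in testis, 9.94 to 26.6% in the epididymis, 28 to 43.8% in bulbourethral gland, 42.4 to 58.8% in the prostate gland and 49.9 to 67.6% in vesicular gland. The lists of germ cell and epididymal markers followed the labels. The summed TPM of 6 germ cell genes, led by PRM1, TNP1 and ODF1, was 23224 to 100874 in testis and at most 929 elsewhere. That of 4 epididymal genes, led by ADAM7, CRISP1 and LCN6, was 1717 to 13389 in epididymis and at most 14.4 elsewhere. HOXB13, a homeobox gene of prostate epithelium, was 92.7 to 297 TPM in the prostate gland, at most 0.215 TPM in testis and 0 in the other 3 glands. FOXA1 was 16.6 to 45.3 TPM in the prostate gland and 54.9 to 116 TPM in bulbourethral gland, against at most 18.3 TPM elsewhere. No marker list for the vesicular gland was used. The library of DSE testis replicate 2 stood apart, with 23224 TPM of germ cell genes against 66619 or more in the other testis libraries, and 63338 TPM of 4 Leydig cell genes against 32256 or less. DSE epididymis replicate 1 and BMI prostate gland replicate 2 stood apart in single claudins, as given below. Transcript integrity, a quality measure taken by the study from its aligned reads and not recomputed here, was lowest of all in DSE epididymis replicate 1. In the other glands it was lowest in DSE testis replicate 1, DSE vesicular gland replicate 1, BMI prostate gland replicate 3 and DSE bulbourethral gland replicate 2.

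Each gland was compared with the mean of the other 4 on the log2(TPM + 1) scale with limma, and a gene was called with an adjusted p below 0.05 and a fold change of at least 2. CLDN9, CLDN22 and CLDND2 passed the filter on low values through the gland in which each is high, without which they would have failed it, and such a member had to differ there. CLDN2 passed it with exactly 3 libraries, 2 of epididymis and 1 of vesicular gland, and without epididymis would have failed it as well. In testis 4 of the 26 members were higher and 15 lower, against 34.6% and 12.7% of all 19796 genes. In epididymis 11 were higher and 2 lower (all genes, 15.1% and 6.56%). In bulbourethral gland 8 were higher and 3 lower (8.45% and 12%). In prostate gland 3 were higher and 5 lower (3.7% and 12.8%), and in vesicular gland 6 were higher and 8 lower (2.95% and 30.1%). The 2 lower in epididymis were CLDN22 and CLDND2. CLDND2 was also lower in prostate and bulbourethral gland, CLDN9 in prostate gland and CLDN22 in vesicular gland. Each of these genes passed the filter through another gland, whose high level is part of the mean. Such calls of lower restate that level. Of 6 luminal epithelium markers, led by EPCAM, KRT19 and KRT8, 6 were higher in bulbourethral gland, 5 in each of epididymis and prostate gland, 2 in vesicular gland and 0 in testis, with sums of 2457 to 3282 TPM in bulbourethral gland and 950.0 to 2024 TPM in epididymis, and their part in the counts was not tested. Without BMI epididymis replicate 1, the count of higher members in epididymis was 9. In prostate gland 5 were higher and 3 lower without BMI prostate gland replicate 3, and 5 were higher without DSE prostate gland replicate 2. In bulbourethral gland 5 were lower without BMI epididymis replicate 2, DSE epididymis replicate 1 or DSE bulbourethral gland replicate 3. The median log2 fold change of the members was -1.32 in testis, where that of all genes was 0.31, and 0.74 in epididymis, where that of all genes was 0.25. It was 0.08 in bulbourethral gland (all genes, -0.05), -0.14 in the prostate gland (-0.28) and -0.44 in the vesicular gland (-0.69). The libraries of a gland lay all above those of the others for 2 members in testis and 1 each in epididymis, prostate and bulbourethral gland, and all below for 7 in testis, as described with each gene. In vesicular gland no member was above all others (all genes, 0.278%). Below all others lay no member of epididymis (all genes, 0.0404%), bulbourethral gland (0.141%), prostate gland (0.0152%) or vesicular gland (1.6%).

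Dividing TPM by size factors from the median of ratios moved the log2 fold change of a gene, as a median over all genes, by -0.19 in testis, -0.42 in the epididymis, -0.17 in bulbourethral gland, 0.12 in the prostate gland and 0.65 in vesicular gland, and levels are to be read against these shifts. With it 3 members were higher and 15 lower in testis, 7 and 2 in the epididymis, 8 and 5 in bulbourethral gland, 5 and 5 in the prostate gland, and 9 and 4 in vesicular gland. Of all 19494 genes tested with it, 6175 were higher and 3081 lower in testis and 1678 and 1797 in the epididymis. The counts were 1264 and 2612 in bulbourethral gland, 909 and 2189 in the prostate gland and 1440 and 2362 in vesicular gland. Among all genes called, the share that was higher became 48.3% in epididymis against 69.7% without the factors, and 37.9% against 8.94% in vesicular gland.

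**Figure D1:**
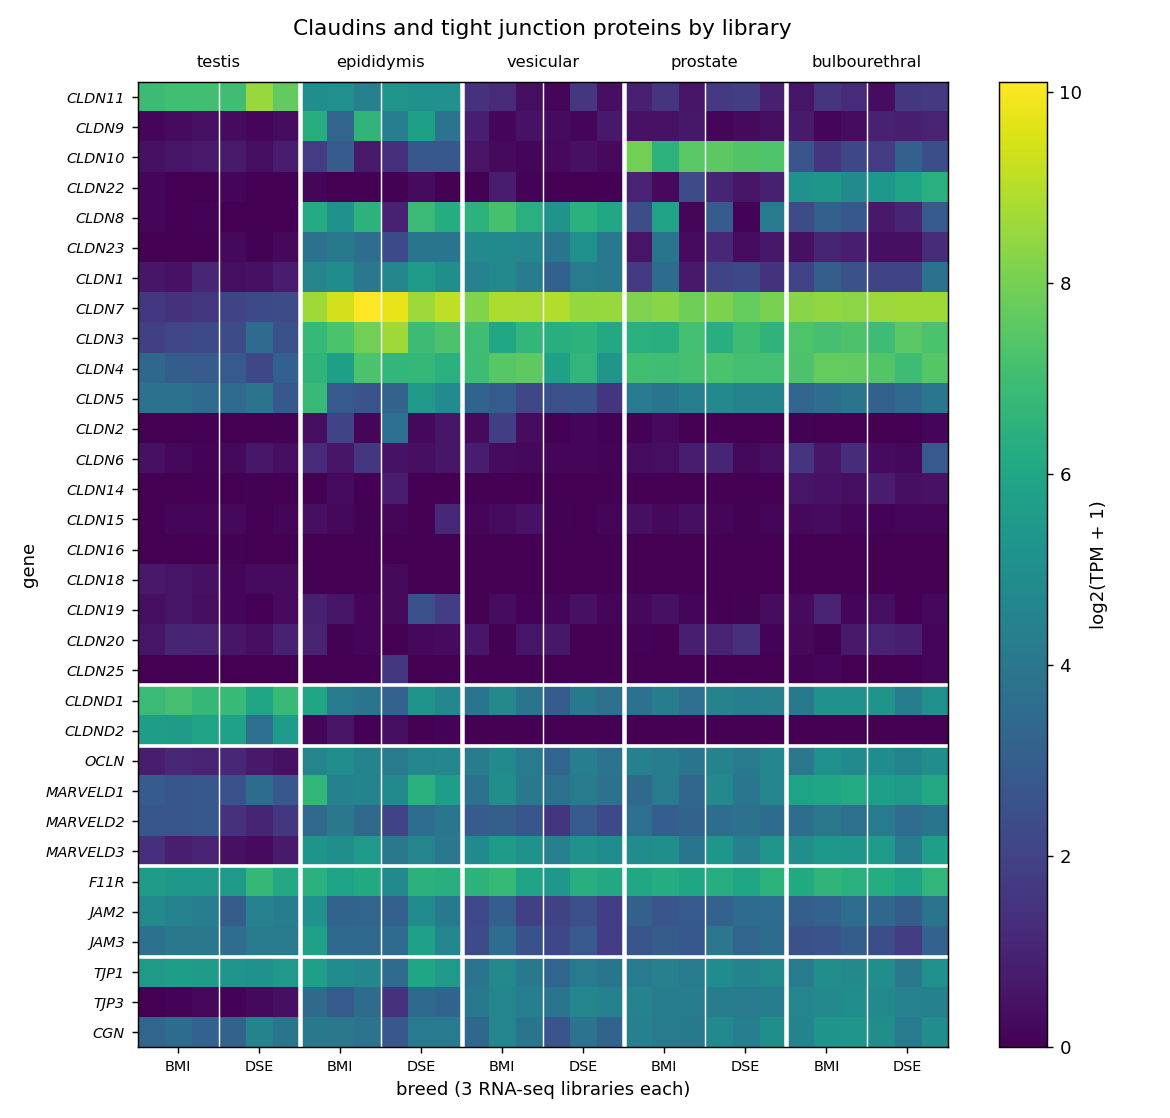
Level of 32 of the 33 members with a value above 0 (rows, grouped by role) in the 30 RNA-seq libraries (columns, 3 for each breed within each gland), as log2(TPM + 1). Testis is dark for CLDN7, CLDN3, CLDN4, OCLN, MARVELD3 and TJP3, which are bright in the other 4 glands, while CLDN11 is brightest in testis, CLDN10 in prostate gland and CLDN22 in bulbourethral gland.

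CLDN11 (chr13:109075058-109090113, plus strand), the blood-testis barrier claudin, was the most abundant claudin of testis. In BMI testis it was 122, 132 and 130.2 TPM in the 3 libraries, and in DSE testis 129, 377 and 204 TPM. In epididymis it was 31.2, 32.1 and 20.3 TPM in BMI and 38, 33.4 and 33.4 TPM in DSE. All testis libraries lay above all epididymis libraries, and these above all libraries of the accessory glands. In vesicular gland it was 1.75, 1.33 and 0.295 TPM in BMI and 0.128, 2.05 and 0.348 in DSE. In prostate gland it was 0.832, 1.88 and 0.487 TPM in BMI and 2.19, 2.55 and 0.838 in DSE. In bulbourethral gland it was 0.506, 1.84 and 1.37 TPM in BMI and 0.258, 2.10 and 2.21 in DSE. The 3 accessory glands overlapped each other at this low level. The mean in testis was 182 ± 100.2 TPM (SD, n = 6), and the level there was higher than in the other glands (log2 fold change 5.32 ± 0.24 (SE), adjusted p = 1.6e-16). It was higher in epididymis as well, as a mean over the logs of the other 4 glands (log2 fold change 2.33 ± 0.24 (SE), adjusted p = 1.8e-08), though every testis library exceeded it. The highest testis value came from DSE replicate 2, in which 8 Sertoli cell genes, led by SOX9, INHA and GATA4, summed to 327 TPM against 121 to 223 TPM in the other testis libraries. Without that library the log2 fold change was 5.11. Of the list 5 of the 7 tested genes were higher in testis and SOX9 was lower there, and outside testis the list summed to at most 113 TPM. Their part in the level of CLDN11 was not tested.

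CLDN10 (chr11:65121607-65145072, plus strand), which in kidney forms ion-selective paracellular channels, marked the prostate gland. It was 244, 91.1 and 183 TPM in BMI prostate gland and 185, 163 and 159 TPM in DSE prostate gland. In bulbourethral gland it was 5.37, 1.88 and 3.50 TPM in BMI and 2.51, 7.49 and 4.36 in DSE, and in epididymis 2.52, 6.38 and 0.653 in BMI and 1.61, 5.70 and 5.70 in DSE. Every prostate library lay above the highest of the other glands, 7.49 TPM. In testis it was 0.378, 0.498 and 0.661 TPM in BMI and 0.667, 0.285 and 0.687 in DSE, and in vesicular gland 0.453, 0.191 and 0.123 in BMI and 0.207, 0.371 and 0.190 in DSE. Testis and vesicular gland were thus under 1 TPM throughout. The mean in prostate gland was 171 ± 49.5 TPM (SD, n = 6), with a log2 fold change of 6.05 ± 0.25 (SE), adjusted p = 2.6e-15. The order of the glands below prostate was bulbourethral gland, epididymis, testis and vesicular gland, and each overlapped the next. Libraries of a gland that lay above all others were found for 0.177% of all genes in prostate gland.

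CLDN22 (chr15:44800102-44804982, minus strand), a claudin about which little is known, was found in the bulbourethral gland. It was 33.3, 39.6 and 27.9 TPM in BMI and 40.9, 57.1 and 83.3 TPM in DSE. Elsewhere it was 0.178 to 3.96 TPM in prostate gland and at most 0.704 TPM in the remaining 3 glands. The bulbourethral libraries lay above all others (1.74% of all genes did so), and the values of BMI all lay below those of DSE. The mean was 47 ± 20.3 TPM (SD, n = 6), with a log2 fold change of 5.17 ± 0.19 (SE), adjusted p = 6.4e-17, for a gene that without the bulbourethral libraries would not have passed the filter. CLDN22 shares 38.4% of its exonic bases with WWC2 on the opposite strand, and the strand of the libraries is not stated. WWC2 itself was 6.91 TPM on average in bulbourethral gland and 13.8 TPM in testis, where CLDN22 was at most 0.121 TPM.

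CLDN9 (chr3:39172849-39177480, minus strand) was high only in epididymis among the 5 glands. It was 76.7, 8.81 and 97.1 TPM in BMI and 18.7, 51.9 and 13.4 TPM in DSE, and 0.103 to 0.951 TPM in the 24 other libraries. The 6 epididymis libraries spanned a wide range and all lay above the others (3.02% of all genes did so). The mean was 44.4 ± 36.8 TPM (SD, n = 6), with a log2 fold change of 4.56 ± 0.29 (SE), adjusted p = 5.3e-12, for a gene that passed the filter through the epididymis libraries alone. Its neighbour CLDN6 stayed between 0.0585 and 6.12 TPM in all libraries and was called in no gland.

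A further group was shared by vesicular gland and epididymis. CLDN8, which blocks the passage of cations in kidney collecting ducts, was 90.3, 143 and 83.5 TPM in BMI vesicular gland and 36.3, 87.1 and 63.2 TPM in DSE vesicular gland. In epididymis it was 72.4, 34.8 and 91.3 TPM in BMI and 0.896, 117 and 75.8 TPM in DSE. It was thus near absent in DSE epididymis replicate 1 alone of the 12 libraries of these glands, the library of lowest transcript integrity, whose part in the value was not tested. It was higher in vesicular gland (log2 fold change 3.78 ± 0.67 (SE), adjusted p = 2.5e-05) and in epididymis (log2 fold change 2.56 ± 0.67 (SE), adjusted p = 0.00219), and without that library the latter was 3.51. In DSE libraries alone the call in epididymis was lost, at 2.23 (adjusted p = 0.0903, limma). CLDN23 was 13.8, 25.1 and 33 TPM at the lowest, median and highest in vesicular gland and 3.86, 13.6 and 16.1 TPM in epididymis, and was higher in both (log2 fold change 3.14 and 1.99). CLDN1, a claudin of skin and many other epithelia, was 14.9, 26.3 and 46.6 TPM at the lowest, median and highest in epididymis and 7.81, 17.9 and 25.9 TPM in vesicular gland, with log2 fold changes of 2.46 and 1.66. Basal epithelium markers KRT5, TP63 and KRT15 were all higher in epididymis and all lower in prostate gland, and KRT5 alone of them was higher in vesicular gland, with sums of 28.4 to 158, 0.478 to 12.9 and 25.4 to 69.1 TPM. In bulbourethral gland 2 of the 3 markers were higher and the sum was 33.3 to 224 TPM. There CLDN8, CLDN23 and CLDN1 were at most 7.53, 1.42 and 12.7 TPM. The part of the markers in the claudin levels was not tested. All 3 claudins were at most 1.11 TPM in testis.

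The same 3 claudins stood out together in BMI prostate gland replicate 2. There CLDN8 was 54.8 TPM, CLDN23 14.3 TPM and CLDN1 10.8 TPM. In the other 5 prostate libraries CLDN8 was at most 16.9 TPM, CLDN23 at most 1.20 TPM and CLDN1 at most 3.62 TPM. CLDN10 was lowest of the 6 in that library, and so was HOXB13, at 92.7 TPM, while the basal markers summed to 12.9 TPM there and to at most 6.21 TPM in the other 5. The part of either in the levels was not tested. Without that library the log2 fold change in prostate gland was 6.25 for CLDN10 and -1.68 for CLDN23, against -1.09 with it. The call of CLDN23 as lower in prostate gland was lost without BMI prostate gland replicate 1, without its replicate 3 or without DSE prostate gland replicate 2, with log2 fold changes of -0.83 and -0.77 without the BMI libraries and just under 2-fold without that of DSE (adjusted p = 0.0318). The call of CLDN1 there was lost without BMI prostate gland replicate 3, at -0.76, and without DSE prostate gland replicate 3, at -0.97.

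**Figure D2:**
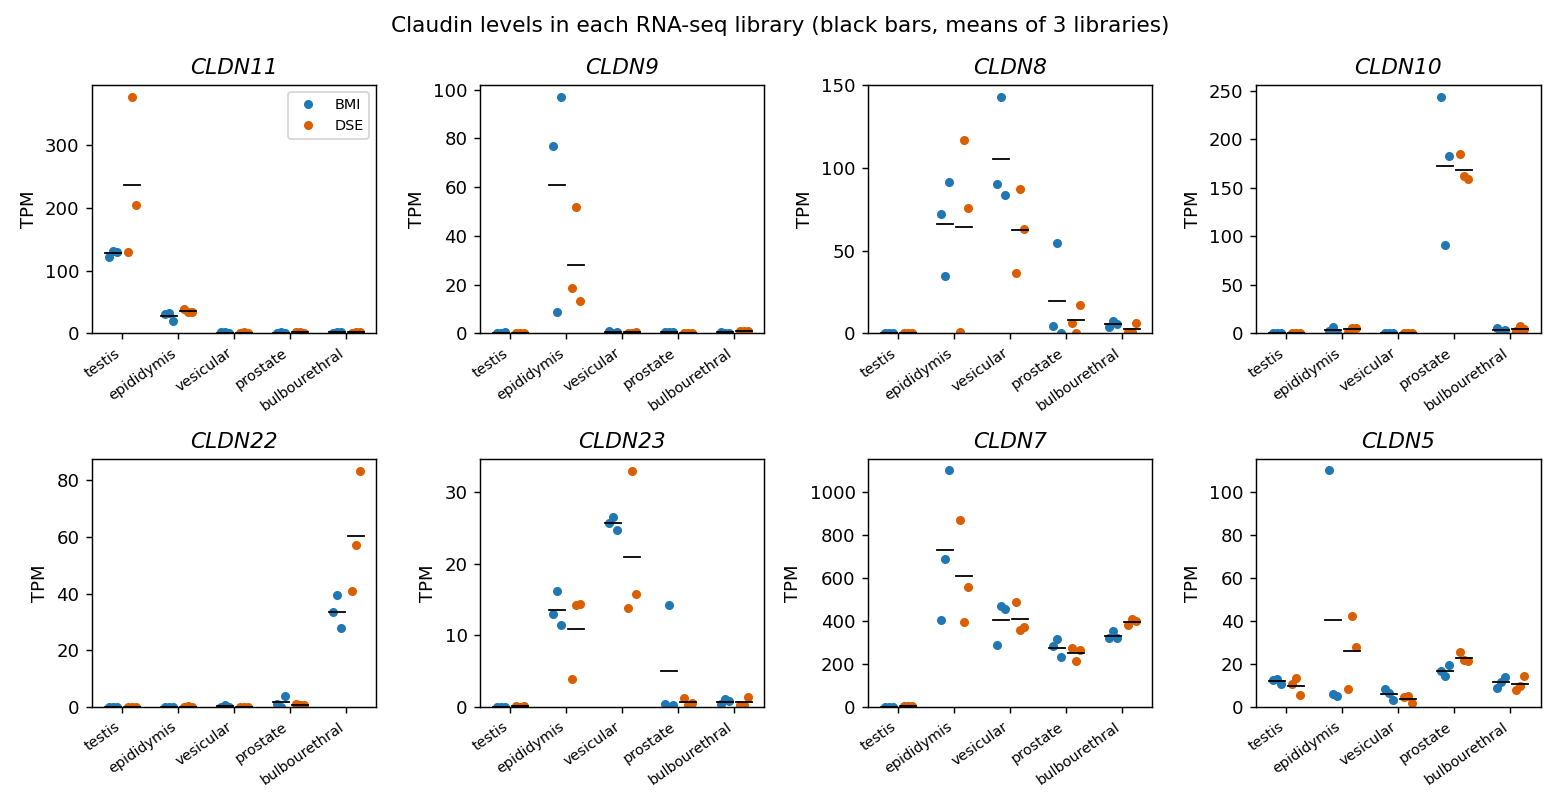
TPM of 8 claudins in each library (points; BMI blue, DSE orange) by gland, with black bars for the mean of 3 libraries, each panel on its own linear axis from 0. CLDN11, CLDN10 and CLDN22 each separate a single gland from the rest, CLDN8 and CLDN23 rise in epididymis and vesicular gland with a single high library in BMI prostate gland, and CLDN7 is near 0 in testis alone.

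CLDN7, CLDN3 and CLDN4, the claudins of most simple epithelia, carried most of the claudin TPM outside testis. CLDN7 was 397, 621 and 1098 TPM at the lowest, median and highest in the epididymis, 319, 367 and 407 in bulbourethral gland, 212, 271 and 313 in the prostate gland and 288, 414 and 488 in vesicular gland. In testis it was 2.11, 1.82 and 2.13 TPM in BMI and 3.17, 3.76 and 3.90 in DSE. Testis lay below all other libraries for CLDN7, CLDN3, CLDN4, CLDN23, OCLN, MARVELD3 and TJP3, which is 7 of the 26 members against 3.15% of all genes. In testis CLDN7 was lower by the largest amount of all members (log2 fold change -6.72 ± 0.15 (SE), adjusted p = 5.3e-22). CLDN3 was 2.81 to 10.4 TPM in testis and 65.1 to 400.2 TPM elsewhere (log2 fold change -4.49 ± 0.21 (SE), adjusted p = 2.5e-16). CLDN4 was 3.42 to 9.79 TPM in testis and 37.8 to 207 TPM elsewhere (log2 fold change -4.03 ± 0.18 (SE), adjusted p = 1.4e-16), and shares 59.7% of its exonic bases with an antisense Iso-seq gene of 2.82 TPM on average. Epithelial genes moved the same way. The 6 luminal genes of the marker list, led by EPCAM, KRT19 and KRT8, were all lower in testis and summed to 14.9 to 42.3 TPM there, against 806 TPM or more in every other library. Their part in the claudin levels was not tested. Outside testis, CLDN7 was higher in epididymis, vesicular and bulbourethral gland and CLDN4 in prostate and bulbourethral gland, each against a mean that holds the low testis value. In prostate gland the calls of both genes depended on the fit. CLDN4 fell under 2-fold there in BMI alone, at 0.92. CLDN7 was called higher there with a pseudocount of 0.1 (1.05), with size factors (1.07) and in BMI alone (1.10).

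CLDN5, the claudin of blood vessel walls, gave wide ranges within single glands. It was 12.5, 13 and 10.5 TPM in BMI testis and 10.5, 13.6 and 5.79 TPM in DSE testis, and 110.3, 6.22 and 5.08 TPM in BMI epididymis and 8.34, 42.6 and 28 TPM in DSE epididymis. The highest value by far was BMI epididymis replicate 1, where 6 endothelial genes, led by PECAM1, VWF and CDH5, summed to 624 TPM against 58.6 to 317 TPM in the other epididymis libraries. CLDN5 was called in vesicular gland alone, where it was 1.95 to 8.57 TPM (log2 fold change -1.46 ± 0.38 (SE), adjusted p = 0.00155). Of the 6 endothelial genes 2 were lower there, PECAM1 and CDH5, with a sum of 34.3 to 79.5 TPM, and their part in the level was not tested. With size factors the call of CLDN5 was lost, at -0.72 and an adjusted p of 0.0678. CLDN2, a claudin of leaky epithelia, was called higher in epididymis (log2 fold change 1.04 ± 0.31 (SE), adjusted p = 0.00686), where it was 12 TPM in DSE replicate 1, 3.05 TPM in BMI replicate 2 and at most 0.515 TPM in the other 4 libraries. Without the epididymis libraries the gene would not have passed the filter. The call was lost without DSE replicate 1, at a log2 fold change of 0.49, and without BMI replicate 2, at 0.74. The same DSE library, DSE replicate 1, held the highest values of CLDN3, 400.2 TPM, and of CLDN25, 2.15 TPM.

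The 7 claudins with a value that failed the filter stayed low. CLDN19 was 0.859, 0.492 and 0.0976 TPM in BMI epididymis and 0.207, 4.86 and 2.58 TPM in DSE epididymis, and under 1 TPM elsewhere. CLDN14 was highest in the 6 bulbourethral libraries and DSE epididymis replicate 1, at 0.291 to 0.727 TPM. CLDN18, a claudin of stomach and lung, was 0.121 to 0.621 TPM in testis, 0.196 TPM in DSE epididymis replicate 1 and 0 in the other 23 libraries, while its 4 Iso-seq reads all came from BMI epididymis. CLDN15, CLDN16, CLDN20 and CLDN25 reached 1.24, 0.0389, 1.66 and 2.15 TPM in their highest library. CLDN20 shares 37.2% of its exonic bases with TFB1M, which was 53.9 TPM in testis.

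As shares of the summed claudin TPM, the make-up of the glands differed. The sum was 211 ± 102 TPM in testis, 1188 ± 340.1 in the epididymis, 763 ± 56.7 in bulbourethral gland, 715 ± 36.1 in the prostate gland and 741 ± 132 in vesicular gland (SD, n = 6). CLDN11 made up 84.8% ± 4.51 of it in testis and CLDN5 5.95% ± 2.45. CLDN7 made up 54.8% ± 10.3 in the epididymis, 47.6% ± 3.45 in bulbourethral gland, 36.8% ± 4.47 in the prostate gland and 55.3% ± 10.7 in vesicular gland. CLDN10 took 23.8% ± 6.15 in prostate gland, CLDN8 11.2% ± 3.54 in vesicular gland and CLDN22 6.04% ± 2.14 in bulbourethral gland. The number of claudins with a mean of at least 1 TPM was 5 in testis, 12 in epididymis, 10 in each of prostate and bulbourethral gland and 7 in vesicular gland.

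**Figure D3:**
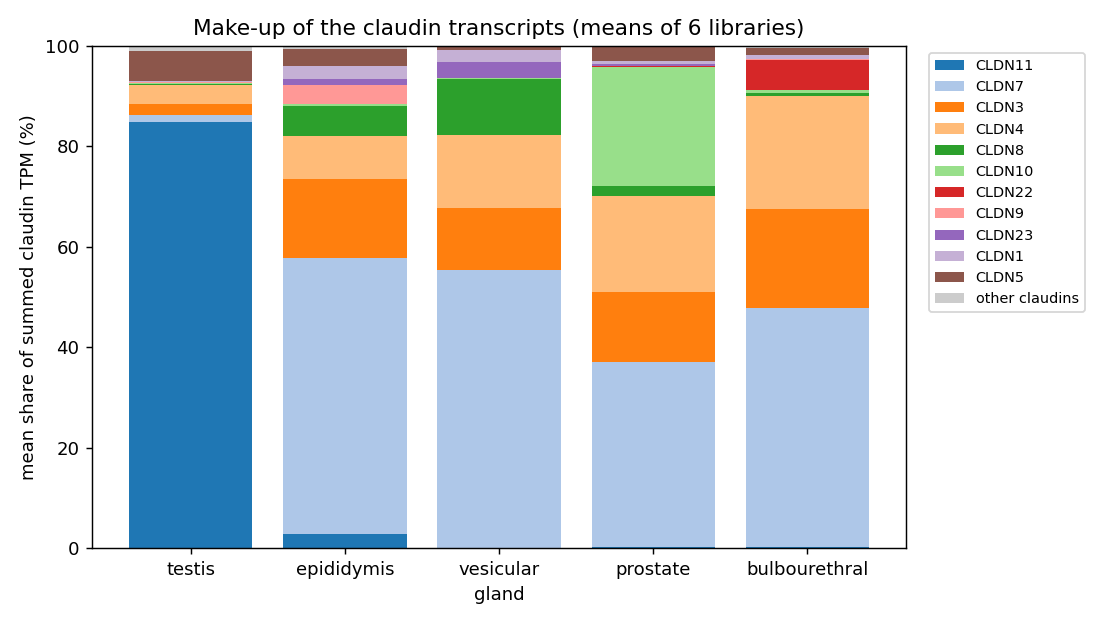
Mean share of the summed claudin TPM held by each claudin (stacked bars, 6 libraries for each gland, in percent). CLDN11 fills most of the testis bar, and CLDN7, CLDN3 and CLDN4 fill most of the other 4, with CLDN8 added in vesicular gland, CLDN10 in prostate gland and CLDN22 in bulbourethral gland.

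The claudin domain genes were both higher in testis, and CLDND1 was present in every library. CLDND2 was 49.3, 47.6 and 57.1 TPM in BMI testis and 53.9, 11.9 and 45.1 TPM in DSE testis, and at most 0.448 TPM elsewhere (log2 fold change 5.31 ± 0.17 (SE), adjusted p = 1.7e-19), and passed the filter through the testis libraries alone. CLDND1 was 117, 138 and 104 TPM in BMI testis and 115, 60.9 and 114 TPM in DSE testis, and 6.71 to 61.4 TPM elsewhere (log2 fold change 2.38 ± 0.27 (SE), adjusted p = 2.1e-08). Both were lowest in DSE replicate 2, the testis library with the fewest germ cell transcripts, in which CLDN11 was highest. CLDND2 lies whole within an antisense Iso-seq gene that was 3.50 TPM on average in testis. CLDN11 and CLDND2 were the 2 members whose testis libraries all exceeded every other library, as 23.8% of all genes did.

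Of the MARVEL proteins, OCLN (occludin) was 0.373 to 1.23 TPM in testis and 8.68 to 32.5 TPM elsewhere (log2 fold change -3.58 ± 0.16 (SE), adjusted p = 1.4e-16). MARVELD3 was 1.54, 0.778 and 1.01 TPM in BMI testis and 0.360, 0.241 and 0.676 in DSE testis, and 14.4 to 50.8 TPM elsewhere (log2 fold change -4.15 ± 0.19 (SE), adjusted p = 2.2e-16). Both were below all other libraries in testis. MARVELD2 (tricellulin), which seals the corners between cells, was 1.08 to 5.87 TPM in testis against 1.92 to 16.9 TPM elsewhere (log2 fold change -1.28 ± 0.20 (SE), adjusted p = 2.7e-06). MARVELD1 was 44.6 to 72.2 TPM in bulbourethral gland, where it was higher (log2 fold change 1.77 ± 0.26 (SE), adjusted p = 3.3e-06), and 102, 21 and 22.4 TPM in BMI epididymis and 26.5, 86.3 and 47.7 TPM in DSE epididymis, where it was higher too. In epididymis smooth muscle genes, led by TAGLN, ACTA2 and DES, summed to 13745 TPM in BMI replicate 1 and 20837 TPM in DSE replicate 2, the libraries with the highest MARVELD1 and JAM3, against at most 7978 TPM in the other 4. Their part in the levels was not tested. MARVELD1 no longer passed the 2-fold threshold in epididymis without BMI replicate 1, at a log2 fold change of 0.83, or without DSE replicate 2, at 0.99. MARVELD1 was lower in testis, at 4.88 to 11 TPM, and shares 73.2% of its exonic bases with an Iso-seq gene on the same strand that was 0.320 TPM on average.

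The junctional adhesion molecules had no member below all other libraries in testis. F11R (JAM-A) was 41.3 to 106 TPM in testis, 27.4 to 90.0 in the epididymis, 57.4 to 98.8 in bulbourethral gland, 59.6 to 90.5 in the prostate gland and 41.4 to 108 in vesicular gland. All 5 ranges overlapped, and F11R was called in no gland. JAM2 (JAM-B), which Sertoli cells display and JAM-C of spermatids binds, was 27.3, 21.4 and 18.8 TPM in BMI testis and 6.94, 21.1 and 18.1 TPM in DSE testis (log2 fold change 1.04 ± 0.26 (SE), adjusted p = 7.6e-04). The change fell under 2-fold, at 0.90 to 0.99, without BMI testis replicate 1, DSE testis replicate 2 or 3, or DSE epididymis replicate 1, and was 0.83 with size factors. JAM2 was lower in vesicular gland, at 2.56 to 7.18 TPM (log2 fold change -1.43 ± 0.26 (SE), adjusted p = 2.8e-05). That change is to be read against the size factors, which moved the median gene by 0.65 in vesicular gland. With them 4 members were lower there, against 8 without. JAM3 (JAM-C) was 53.7, 9.90 and 9.96 TPM in BMI epididymis and 10.6, 54.2 and 23.9 TPM in DSE epididymis, where it was higher (log2 fold change 1.37 ± 0.29 (SE), adjusted p = 3.3e-04), and 11 to 17.2 TPM in testis. Without BMI epididymis replicate 1 its log2 fold change was 0.98 and the call was lost.

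The plaque proteins did not move together. TJP3 (ZO-3) was 0.0276 to 0.342 TPM in testis and 1.69 to 30.0 TPM elsewhere (log2 fold change -3.90 ± 0.19 (SE), adjusted p = 1.0e-15), and was higher in each accessory gland. TJP1 (ZO-1) was 34 to 49 TPM in testis, 10.6 to 59.5 in epididymis and 8.74 to 32.6 TPM in the accessory glands, and its log2 fold change in testis was 0.88, under the limit of 2-fold (adjusted p = 0.00159). All testis libraries of TJP1 lay above all accessory gland libraries and overlapped those of epididymis. CGN (cingulin) was 8.03 to 21.6 TPM in testis and 16.7 to 37.5 TPM in bulbourethral gland and was called in no gland.

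The use of single transcripts of these genes was compared as well. The share of each transcript in the TPM of its gene was compared for 132 transcripts of 13 members. A differing share, by at least 10 percentage points with an adjusted p below 0.05 (limma), was called for 16 transcripts of 6 members in testis (12.1%, near the 9.84% of all 85448 transcripts tested), 3 in the epididymis (2.27% against 1.63% of all transcripts), 2 in bulbourethral gland (1.52% against 1.54%), 2 in the prostate gland (1.52% against 1.25%) and 7 in vesicular gland (5.3% against 1.93%). The count in vesicular gland was 3 or 4 without BMI replicate 1 or 3 or DSE replicate 3 of that gland, 4 for genes of at least 5 TPM and 3 with a limit of 20 points, and that in prostate gland was 4 without BMI testis replicate 3. The members in testis included CLDN4, CGN, CLDN7, MARVELD2 and TJP1. In the contrasts of the other glands testis is part of the mean, so a transcript of CLDN4 used mainly in testis is called there too.

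CLDN4 has 2 Ensembl transcripts that differ in their first exon. Outside testis the first exon lay at chr3:11039706-11039747, plus strand, and in testis a downstream first exon was used. The testis form held 96.9, 100 and 100% of CLDN4 TPM in BMI testis and 100, 83.4 and 88.4% in DSE testis, and at most 6.34% in the other 24 libraries. The difference was 93.7 ± 1.41 percentage points (SE), adjusted p = 4.8e-22. CGN, on the minus strand of chromosome 4, began in testis at an exon upstream of the annotated start, chr4:97741789-97741932, and elsewhere at chr4:97730001-97730108. Transcripts from the upstream exon held 81, 89.4 and 31.7% of CGN TPM in BMI testis and 57.7, 63.7 and 62.7% in DSE testis, and 0 in the other libraries of the remaining glands except for 1.82% in DSE vesicular gland replicate 2. The main form of these differed by 62.6 ± 4.77 percentage points (SE), adjusted p = 9.4e-10. In Iso-seq, 5 of 7 reads (71.4%, exact 95% interval 29 to 96.3%) of CGN began at that exon in testis and 1 of 109 reads (0.917%, exact 95% interval 0.0232 to 5.01%) in the other glands. Both CLDN4 reads of Iso-seq came from testis and had the testis exon.

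TJP1 differed at its start and inside its coding region. Transcripts that began at chr1:144990270-144990404, minus strand, an exon of 135 bases inside the gene, held 40.3, 19.4 and 51.7% of TJP1 TPM in BMI testis and 35.5, 16.9 and 40.7% in DSE testis, and at most 4.07% in any library of the other glands. The transcripts with the largest shares in the other glands began at chr1:145059172-145059640. In Iso-seq, 123 of 240 reads (51.2%, exact 95% interval 44.7 to 57.7%) of TJP1 began at the exon of 135 bases in testis and 0 of 270 reads (0%, exact 95% interval 0 to 1.36%) elsewhere, where 9 further reads could not be placed and were left out. The largest called difference of a single TJP1 transcript was that of PB.1122.1, which was at 0 in testis and took 23.8% on average elsewhere (-23.8 ± 6.69 percentage points (SE), adjusted p = 0.0116). The stretches below show the first exon used in testis and the most abundant other first exon of CGN and TJP1 where they join the intron, with the last 20 exon bases in capitals and 10 intron bases in lower case. Each intron begins with gt.
CGN, testis start: TTCTAATTGCCAGCCAGGTGgtgagtaaag
CGN, other start: GAGCGCCGAGCCCGGCTGGGgtgagtgaac
TJP1, testis start: CTGTTCCCTAAGAGTTCTGGgtaagtcctc
TJP1, other start: CCAGGGCCGCGGCCGCCAAGgtgagtgccg

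The exon of TJP1 that codes the alpha domain of ZO-1 was mostly skipped in testis. ZO-1 with the alpha domain is known from the junctions of ordinary epithelia, and the form without it from Sertoli cells and endothelium. The exon lies at chr1:144950899-144951138, minus strand, is wholly coding in the Ensembl transcript ENSSSCT00000063278, and its 240 bases hold 80 codons. It is shown with the exon in capitals and 20 intron bases on each side in lower case.
TJP1 alpha exon: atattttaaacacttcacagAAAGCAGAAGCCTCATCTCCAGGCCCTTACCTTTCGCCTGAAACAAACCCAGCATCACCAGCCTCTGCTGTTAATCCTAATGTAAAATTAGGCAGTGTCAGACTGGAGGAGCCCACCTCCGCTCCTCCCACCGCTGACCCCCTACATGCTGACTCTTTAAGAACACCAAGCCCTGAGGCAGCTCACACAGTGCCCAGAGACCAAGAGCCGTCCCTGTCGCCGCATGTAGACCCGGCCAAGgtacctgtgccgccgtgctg
The share of TJP1 TPM with the exon was 5.16, 4.91 and 5.44% in BMI testis and 4.22, 22 and 7.35% in DSE testis. In epididymis it was 41.1, 55.6 and 37% in BMI and 19.6, 39 and 48.6% in DSE. Epididymis lay between testis and most libraries of the accessory glands. It was 67.2, 80.6 and 80.7% in BMI and 30.0, 62.7 and 77.9% in DSE vesicular gland. In prostate gland it was 62.5, 78.7 and 62.5% in BMI and 76.4, 76.2 and 71.3% in DSE. In bulbourethral gland it was 50.6, 74.3 and 70.3% in BMI and 76.5, 19.6 and 66.2% in DSE. The 3 accessory glands overlapped each other. The highest testis value, from DSE replicate 2, exceeded the lowest of epididymis and of bulbourethral gland, which came from DSE epididymis replicate 1 and DSE bulbourethral gland replicate 2. These and DSE vesicular gland replicate 1, the lowest of its gland, were the libraries of lowest transcript integrity in their glands, and the part of integrity in the shares was not tested. In the remaining libraries outside testis the share was at least 37%, above every testis library. The other 5 testis libraries lay below all libraries of other glands. In Iso-seq, 7 of 240 reads (2.92%, exact 95% interval 1.18 to 5.92%) kept the exon in testis, and 199 of 270 reads (73.7%, exact 95% interval 68 to 78.9%) kept it in the other glands together, again without the 9 reads that could not be placed. The exon was chosen after values of TJP1 transcripts had been seen, so its shares are given without a test, and the intervals cover counting error only.

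CLDN7 is nearly absent from testis, and the little that was counted there came in part from transcripts with an upstream start, at 80.2, 13.1 and 96.5% of CLDN7 TPM in BMI and 13.9, 97.9 and 51.8% in DSE. These shares spread over most of the scale, while elsewhere they were at most 3.23%, and no Iso-seq read of CLDN7 came from testis. The main such transcript differed by 58 ± 8.67 percentage points (SE), adjusted p = 2.2e-05. MARVELD2 transcript ENSSSCT00000018468 held 0 to 43.6% in testis and at most 15.4% elsewhere (17 ± 2.10 percentage points (SE), adjusted p = 1.7e-06).

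**Figure D4:**
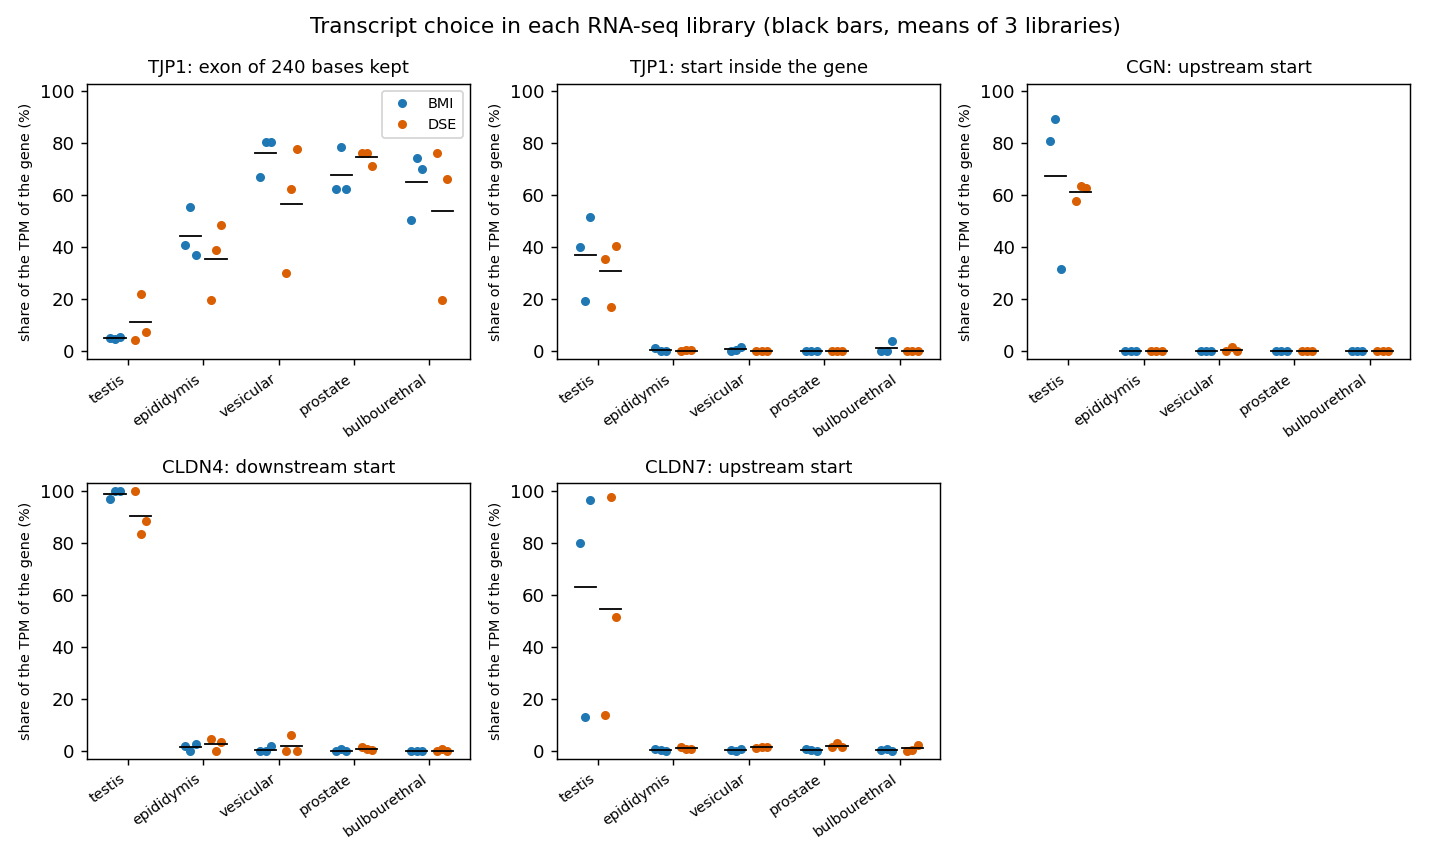
Share of the TPM of a gene held by transcripts with the named exon or start (percent) in each library (points; BMI blue, DSE orange) by gland, with black bars for the mean of 3 libraries. Testis is apart from the other 4 glands for the starts of TJP1, CGN and CLDN4, the TJP1 exon of 240 bases is lowest in testis and intermediate in epididymis, and the CLDN7 start spreads widely in testis.

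Iso-seq counted 5744 full-length reads of members among 3468110, from libraries of 231413 to 458697 reads. The 165 isoforms of members belonged to 25 genes. By the authors' classes 64 of these isoforms had a splice site outside the annotation, 55 joined known sites in a new way, 17 matched part of a known transcript, 15 matched one in full and 14 were of another genic kind. The isoform table holds no isoform with fewer than 2 exons, and of the 9 members with a single Ensembl exon only 5 had an isoform. CLDN8 and CLDN23, which have a single exon, had no read, although CLDN8 reached 143 TPM in RNA-seq. CLDN7 had 48 reads, CLDN3 had 29 and CLDN4 had 2, although these were the most abundant claudins in TPM on average over the 4 glands other than testis. Among the most read members were F11R with 936 reads, CLDND1 with 820, OCLN with 648, MARVELD1 with 520 and TJP1 with 519.

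Read counts are also given as RPM, reads per 1000000 full-length reads of the library. CLDN11 had 60 reads (132 RPM, exact Poisson 95% interval 101 to 169.7) in BMI testis and 73 reads (159 RPM, exact Poisson 95% interval 125 to 201) in DSE testis. In epididymis it had 17 reads (37.1 RPM, exact Poisson 95% interval 21.6 to 59.3) in BMI and 54 reads (233 RPM, exact Poisson 95% interval 175 to 304) in DSE, and at most 1 read in each accessory gland library. In DSE the intervals of epididymis and testis overlapped, and in RNA-seq testis was the higher in both breeds. CLDN10 had 30 reads (89.3 RPM, exact Poisson 95% interval 60.2 to 127) in DSE prostate gland and 0 reads in BMI prostate gland (exact Poisson 95% interval 0 to 14 RPM), where 3 reads would be 11.4 RPM. The RNA-seq levels of CLDN10 in these breeds were given above and overlapped, so this gap is not seen there. OCLN had 1 and 2 reads in BMI and DSE testis and 15 to 126 in the other 8 libraries. MARVELD3 had 0 reads in both testis libraries and 11 to 48 in the others. With 1 library for each breed and gland these counts have no replicate check.

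Between the breeds no member was called in any gland with all libraries. Without BMI prostate gland replicate 2, 2 members were called in prostate gland. DSE was compared with BMI within each gland, on 15 members in testis, 22 in the epididymis, 22 in bulbourethral gland, 20 in the prostate gland and 20 in vesicular gland, with limma. Of all genes tested, 0.619%, 0%, 0.0219%, 0.343% and 1.22% were called in these glands, in the same order. An unadjusted p below 0.05 was found for 3, 1, 1, 6 and 3 members, and for 13.6%, 1.88%, 5.57%, 33.5% and 18.4% of all genes tested. The median log2 fold change of all genes was itself 0.39 in prostate gland and -0.42 in vesicular gland, where that of the members was 0.37 and -0.45. With 3 libraries a breed the standard errors of the members named next were 0.24 to 0.38 on the log2 scale.

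The members with the smallest p were these in 4 of the glands. MARVELD2 in testis was 5.45, 5.48 and 5.87 TPM in BMI and 1.69, 1.08 and 2.15 TPM in DSE, without overlap (log2 fold change -1.34 ± 0.24 (SE), adjusted p = 0.0645). CLDN4 in vesicular gland was 125, 176 and 195 TPM in BMI and 54.5, 99.6 and 37.8 TPM in DSE, without overlap (log2 fold change -1.44 ± 0.33 (SE), adjusted p = 0.0558). Changes of this size thus did not pass the threshold with 3 libraries a breed. Both missed it by a small margin and were called in some alternative fits, which are given in the closing section. In vesicular gland the luminal epithelium markers summed to 1223 to 1367 TPM in BMI and 806 to 1054 TPM in DSE. The basal markers summed to 37.8 to 69.1 TPM there in BMI and 25.4 to 30.1 TPM in DSE. The part of either list in the breed difference of CLDN4 was not tested. MARVELD3 in epididymis was 36.6, 31.6 and 42.1 TPM in BMI and 15.3, 23.3 and 15 TPM in DSE (log2 fold change -1.02 ± 0.31 (SE), adjusted p = 1.0). For CLDN22 in bulbourethral gland the adjusted p was 0.697 (log2 fold change 0.78 ± 0.28, SE). The difference for CLDN11 in testis was 0.75 ± 0.38 on the log2 scale (adjusted p = 0.418) and for CLDN10 in prostate gland 0.08 ± 0.36 (adjusted p = 0.893). A breed difference that differs among the glands was called for 0 of the 26 members with limma's F test and for 2.94% of all genes, and the smallest adjusted p of a member was 0.219, for CLDN4.

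**Figure D5:**
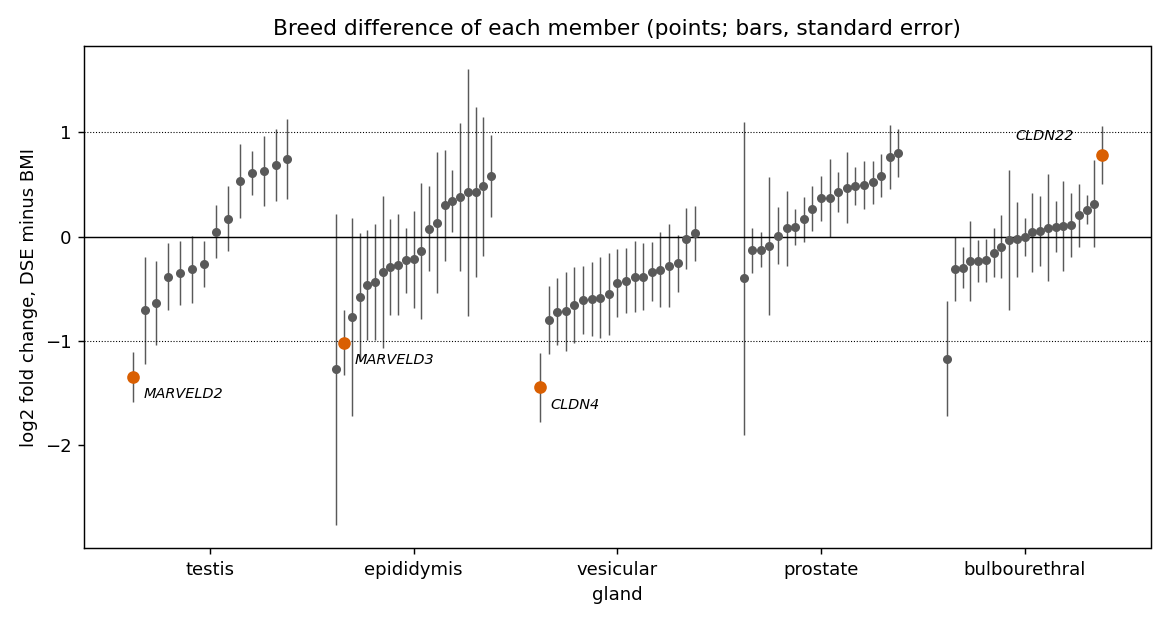
Log2 fold change of DSE against BMI for the tested members reported here within each gland (points, in order of size; bars, standard error; dotted lines, 2-fold). Orange points are the members with the smallest p in 4 of the glands, and MARVELD2 in testis and CLDN4 in vesicular gland lie beyond 2-fold with no call.

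Other junction genes were counted for comparison. Of all genes, 34.6% were higher and 12.7% lower in testis, 15.1% and 6.56% in epididymis, 8.45% and 12% in bulbourethral gland, 3.7% and 12.8% in the prostate gland and 2.95% and 30.1% in vesicular gland. Of 17 further tight junction plaque and membrane genes tested, led by YBX3, SYMPK and LSR, 5 higher and 7 lower were found in testis and 0 higher and 6 lower in vesicular gland, with 3 higher and 1 lower in epididymis and 3 higher and 1 lower in each of prostate and bulbourethral gland. Of 12 polarity genes, led by AMOT, CRB3 and PRKCZ, 2 higher and 3 lower were found in testis, 2 higher and 0 lower in epididymis, 1 higher and 5 lower in vesicular gland and 1 higher and 1 lower in each of the other glands. Of 12 adherens junction genes, led by CTNNB1, CTNNA1 and CDH1, 2 higher and 6 lower were found in testis, 3 higher and 0 lower in the epididymis, 3 higher and 1 lower in bulbourethral gland, 0 higher and 1 lower in the prostate gland and 2 higher and 1 lower in vesicular gland. Of 8 gap junction genes, led by GJB1, GJB2 and GJA1, 2 higher and 3 lower were found in testis, 3 higher and 0 lower in the epididymis, 3 higher and 0 lower in bulbourethral gland, 2 higher and 2 lower in the prostate gland and 1 higher and 4 lower in vesicular gland. The median log2 fold change in testis was -0.68 for the further tight junction genes, -0.57 for polarity genes, -1.03 for adherens junction genes and -0.61 for gap junction genes, beside 0.31 for all genes.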

How the data were processed

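RNA-seq of 5 glands was analysed from 30 libraries and Iso-seq from 10. The labels name rRNA depletion and the study's methods poly-T beads for the RNA-seq libraries, which were made with a NEBNext Ultra kit, and the strand is not stated. The authors merged Iso-seq isoforms with Ensembl 107 transcripts on Sscrofa11.1 and deposited TPM per transcript from salmon 1.9.0 (Salmon, STAR, GSNAP and Bowtie are listed in the submitters' processing notes). The authors clustered full-length Iso-seq reads of all libraries together, classified the isoforms against Ensembl and deposited the full-length read count of every isoform in each library. TPM keeps no depth, so no counting interval is given for RNA-seq, and intervals for Iso-seq cover counting error only. Without the strand, reads of overlapping genes on opposite strands may not be told apart.

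TPM was summed by the gene identifiers of the annotation. Fusion isoforms kept identifiers of their own there and were not added to the genes they join, so the genes tested can include them. Genes that reached 1 TPM in 3 or more libraries were tested with limma 3.58.1 (R 4.3.3) and a trend on log2(TPM + 1), a scale that understates changes of low genes, with a mean for each of the 10 groups of breed and gland. Breeds were compared within a gland in fits of 6 libraries. Transcript shares were tested with limma for genes that reached 1 TPM in 3 or more libraries of each gland. P-values were adjusted by Benjamini-Hochberg over all features, and the thresholds were 0.05 with a 2-fold change or a difference of 10 percentage points. The code was tested on simulated data. Libraries of a breed and gland were checked for pairing by replicate number, which did not pair them throughout. In each gland the called members with the largest changes are named, with the highest claudin of each gland, the smallest p between breeds and the largest share difference of a gene. Members below these limits, and exons and starts inside TJP1, CGN, CLDN4 and CLDN7, were picked after their values were seen. The members and gene lists were chosen with earlier results of these data known. The alternatives were another pseudocount, no filter, no trend, size factors, Ensembl transcripts alone, fusion isoforms added, single breeds, other thresholds, replicate blocks and leaving out each library, in 1 case with the filter of all libraries, added after the data were seen. The miRNA table was not used here, and 1 member, 1 marker gene and 1 sequence are not reported here. Python 3.11.15, pandas 2.3.3, scipy 1.17.1 and pysam 0.24.0 were used.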

Additional observations from a re-analysis of the deposited data

Results flagged for a closer look

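In 73 groups of 6 libraries, made of named members, of members in the glands where they were called and of the transcript choices, 15 held a library whose gap to the nearest other exceeded 0.625 of the range of the group, on the log2(TPM + 1) scale for levels and in percent for transcript choices. Chance flags about 1 in 20 groups. In DSE testis replicate 2, CLDND2 was 11.944 TPM (others 45.13 to 57.12), CLDND1 was 60.895 TPM (103.812 to 137.861), CLDN3 was 10.444 TPM (2.809 to 4.735) and the TJP1 exon of 240 bases was kept at 22.01% (4.223 to 7.345%). These 4 values come from 1 library, the one in which germ cell genes were lowest and Leydig and Sertoli cell genes highest, and the part of that make-up in them was not tested. JAM2 was lowest in DSE testis replicate 1, at 6.936 TPM (18.097 to 27.288).

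In DSE epididymis replicate 1, CLDN8 was 0.896 TPM (34.752 to 116.968) and CLDN23 was 3.862 TPM (11.452 to 16.123). CLDN11 was 20.28 TPM in BMI epididymis replicate 3 (31.231 to 38.049). CLDN23 was 14.282 TPM in BMI prostate gland replicate 2 (0.235 to 1.204). TJP3 was 21.911 TPM in BMI prostate gland replicate 1 (17.146 to 18.42).

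Among transcript choices, the TJP1 exon of 240 bases was kept at 30.036% in DSE vesicular gland replicate 1 (62.669 to 80.724%). The testis start of TJP1 was at 4.066% in BMI bulbourethral gland replicate 3 (0 to 0.21%). In DSE vesicular gland replicate 2 the testis starts of CGN and CLDN4 were at 1.818% (0 in the others) and 6.339% (0 to 1.954%). The upstream start of CLDN7 was at 2.439% in DSE bulbourethral gland replicate 3 (0.257 to 1.035%).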

How the results depend on the processing

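Of the alternatives that left out no library, 136 counts stayed within 1.5 times the value given and 16 did not. With a pseudocount of 0.1, 5 members were higher in prostate gland, and CLDN10 in bulbourethral gland turned from -0.30 to 0.29 on the log2 scale, with no call either way (adjusted p = 0.311 and 0.496, limma). Size factors gave 7 members higher in epididymis, 4 lower in vesicular gland, 5 higher in prostate gland and 5 lower in bulbourethral gland. Ensembl transcripts alone gave 6 higher and 1 lower in epididymis. BMI alone gave 5 lower in vesicular gland and 3 lower in prostate gland, and DSE alone 6 higher in prostate gland. The cause was not tested. Among single genes, 394 values kept their side of the threshold, 7 gained and 10 lost a call and 1 reversed.

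The call of MARVELD2 between breeds in testis was made in a fit of all glands (adjusted p = 0.0178, 1 member) and without DSE testis replicate 2 (0.0363). That of CLDN4 in vesicular gland was made with fusion isoforms added (0.0484, 1 member), in a fit of all glands (0.0335, 1 member), without BMI replicate 1 (0.0477) and without DSE replicate 2 (0.0025), and its p was 0.277 with size factors. In prostate gland 2 members were called without BMI replicate 2. Among transcript shares in vesicular gland, 4 were called for genes of at least 5 TPM and 3 with a difference of at least 20 points.

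Without each library in turn, members higher numbered 3 to 4 in testis, 9 to 12 in epididymis, 8 to 10 in bulbourethral gland, 3 to 5 in prostate gland and 6 in vesicular gland, and members lower 15, 2, 3 to 5, 3 to 6 and 8 to 10. The count of 5 lower in bulbourethral gland came without BMI epididymis replicate 2, DSE epididymis replicate 1 or DSE bulbourethral gland replicate 3. That of 5 higher in prostate gland came without BMI prostate gland replicate 3, which also gave 3 lower, or DSE prostate gland replicate 2. Between breeds 0 to 1 members were called in testis, 0 in epididymis and bulbourethral gland, 0 to 2 in prostate gland and 0 to 1 in vesicular gland. The breed difference differed among glands for 0 to 1 members, the 1 coming without BMI epididymis replicate 2 or DSE epididymis replicate 1. Differing shares numbered 15 to 17 in testis, 2 to 4 in epididymis, 2 to 3 in bulbourethral gland, 2 to 4 in prostate gland (4 without BMI testis replicate 3) and 3 to 8 in vesicular gland (3 or 4 without BMI replicate 1 or 3 or DSE replicate 3).

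Replicate numbers did not pair the libraries throughout. Over 15 pairs of BMI and DSE of a gland the correlation of deviations was -0.555 to 0.374, and over 60 pairs of glands of a breed -0.298 to 0.390. All 3 numbers were over 0.1 for DSE epididymis with vesicular gland (0.228 to 0.390) and DSE testis with vesicular gland (0.149 to 0.292). For BMI and DSE vesicular gland they were 0.160, 0.374 and 0.0177. With the number as a block, 1 member, CLDN4 in vesicular gland, differed between breeds (adjusted p = 0.0320), and no other count moved by over 1.5 times.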

Other observations

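CLDN12 carries no name in the deposited annotation and is not among the members. An Iso-seq isoform with 3 exons at chr9:70499828-70510079, plus strand, assigned to CDK14, lies wholly within the RefSeq position of CLDN12 on Sscrofa11.1 and was 12.6 TPM on average in bulbourethral gland, 6.89 in prostate gland, 5.73 in epididymis, 4.39 in testis and 2.76 in vesicular gland. In bulbourethral gland it ranged from 7.90 to 15.8 TPM over the 6 libraries. CLDN22 in bulbourethral gland drew most of its TPM from Iso-seq isoforms, with 28.4 TPM from PB.7163.3 and 10.5 TPM from PB.7163.2 against 8.12 TPM from the Ensembl transcript of a single exon.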
